A study of Mus musculus with 12 samples.

Results

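The genes described here build the MHC class I antigen presentation pathway. They were chosen by name as 10 of the 17576 genes in the expression table: the heavy chains H2-K1 and H2-D1, the light chain B2m, the transporter genes Tap1 and Tap2, the loading factor Tapbp, the inducible proteasome subunits Psmb8, Psmb9 and Psmb10, and the transactivator Nlrc5. RNA was sequenced from C18-4 cells, an immortalized mouse line derived from type A spermatogonia, in 12 libraries of 4 groups with 3 libraries each. KD cells carried an LV3 lentiviral vector with shRNAs against the long noncoding RNA lncRNA5251, and 3NC cells carried LV3 with a control shRNA. OV cells carried an LV5 vector with the full length of lncRNA5251, and 5NC cells carried LV5 without it, so all 4 groups had been infected with a lentivirus. The sample labels and the main text of the study name lncRNA5251, while the heading of its supplementary methods for these cells names lncRNA8276, and its data statement assigns these cells to a different deposited series. Group names follow the sample labels. The strain label reads IRC mouse in each group, and no source says whether the libraries of a group came from separate cultures, so a p-value measures only the spread between libraries.

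In antigen presentation, the proteasome cuts proteins of the cell into peptides, and the inducible subunits Psmb8, Psmb9 and Psmb10 replace the constitutive subunits Psmb5, Psmb6 and Psmb7 in the immunoproteasome. Tap1 and Tap2 together pump peptides into the endoplasmic reticulum, where tapasin, the product of Tapbp, holds an empty class I molecule next to the transporter until a peptide binds. The loaded complex of a heavy chain, the light chain and the peptide goes to the cell surface and is read by CD8+ T cells. Interferons and NF-kB raise many of these genes together, and Nlrc5 is a transactivator of class I promoters. Germ cells are known for low class I at the surface.

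The values are RPKM, reads scaled by the length of the gene and the mapped reads of the library, so a level can be compared between genes per length. Library sums of RPKM ran from 533099 to 580920. The read depth is not given, and the steps between low values of 6 genes put the relative depth of the libraries between 0.963 and 1.04. Spearman correlations over genes were 0.987 to 0.99 between libraries of a group and 0.973 to 0.989 between groups. The table holds no separate row for lncRNA5251. All 3 knockdown shRNAs match, over their whole length, transcripts of Purb and of no other gene, and Purb (purine rich element binding protein B) measured 8.79 to 10.25 RPKM in KD against 32.92 to 34.11 in 3NC, 29.18 to 32.09 in 5NC and 23.94 to 33.25 in OV. Of 14 spermatogonial markers listed, 11 stayed below 1 RPKM in every library, with Ret, Nanos2, Pou5f1 and Kit at 0, so the defining markers of the labelled cell type were largely absent. Of 7 leukocyte markers 6 stayed below 1 RPKM in every library, and Cd68 was the exception.

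In GRCm38 with GENCODE M21, H2-K1 (Entrez gene 14972), H2-D1 (14964), Tap1 (21354), Tap2 (21355), Tapbp (21356), Psmb8 (16913) and Psmb9 (16912) lie on chromosome 17 between positions 33915899 and 35267499, while B2m (12010) lies on chromosome 2, and Psmb10 (19171) and Nlrc5 (434341) on chromosome 8. Psmb9 (chr17:34181987-34187764, minus strand) and Tap1 (chr17:34187553-34197225, plus strand) point away from each other and share 212 exonic bases. Psmb8 (chr17:34197721-34201454) and Tap2 (chr17:34203527-34216321) follow on the plus strand. Use of strand in counting is not stated, so reads in the bases shared by Tap1 and Psmb9 cannot be told apart. Related sequence touches the heavy chains most. Of all stretches of 50 bases in the transcripts, 9.63% for H2-K1 and 12.8% for H2-D1 also occur in other genes, other class I genes among them, so their RPKM are uncertain. The share was 0.0% for B2m, Psmb9, Psmb10 and Nlrc5 and 2.87% for Tapbp, whose exons also overlap those of Zbtb22 on the same strand by up to 904 bases.

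Promoters are shown for the heavy and light chains and for Psmb9 and Tapbp, the members that differed most between the vector controls, because the factors that act on this pathway bind there. The windows come from RefSeq (GRCm38.p6), run from 250 bases before to 50 bases after a start, read 5′ to 3′ on the strand of the gene, and exist for 8 of the 10 members, Tap2 and Nlrc5 being the others. Capitals mark matches, on either strand, to an interferon-stimulated response element (GAAA, any 2 bases, GAAA), an NF-kB element, the Y box CCAAT and TGACG, the core of a cyclic AMP response element as found in the X2 box of class I promoters. The Tap1 window shares 275 bases with that of Psmb9 and is not repeated, and of the overlapping H2-K1 windows the one further from the gene body is shown.
H2-K1, chr17:34000298-34000597, minus strand: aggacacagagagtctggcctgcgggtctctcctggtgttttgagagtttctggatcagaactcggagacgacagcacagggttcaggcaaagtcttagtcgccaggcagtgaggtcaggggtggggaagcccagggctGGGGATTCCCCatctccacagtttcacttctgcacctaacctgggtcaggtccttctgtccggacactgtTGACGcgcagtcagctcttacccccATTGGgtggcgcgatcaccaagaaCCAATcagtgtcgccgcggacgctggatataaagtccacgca
H2-D1, chr17:35262844-35263143, plus strand: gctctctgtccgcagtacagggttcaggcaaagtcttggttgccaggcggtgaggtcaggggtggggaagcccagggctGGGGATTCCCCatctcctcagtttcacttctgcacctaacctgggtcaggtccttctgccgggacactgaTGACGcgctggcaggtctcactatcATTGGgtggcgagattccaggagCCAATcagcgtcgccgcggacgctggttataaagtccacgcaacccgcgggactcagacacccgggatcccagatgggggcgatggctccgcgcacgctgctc
B2m, chr2:122147437-122147736, plus strand: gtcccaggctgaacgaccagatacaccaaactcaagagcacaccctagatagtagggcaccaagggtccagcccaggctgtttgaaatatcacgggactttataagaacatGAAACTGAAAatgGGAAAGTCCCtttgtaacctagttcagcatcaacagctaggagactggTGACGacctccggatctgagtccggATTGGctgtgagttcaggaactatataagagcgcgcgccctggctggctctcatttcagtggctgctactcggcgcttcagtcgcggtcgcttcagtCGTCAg
Psmb9, chr17:34187281-34187580, minus strand: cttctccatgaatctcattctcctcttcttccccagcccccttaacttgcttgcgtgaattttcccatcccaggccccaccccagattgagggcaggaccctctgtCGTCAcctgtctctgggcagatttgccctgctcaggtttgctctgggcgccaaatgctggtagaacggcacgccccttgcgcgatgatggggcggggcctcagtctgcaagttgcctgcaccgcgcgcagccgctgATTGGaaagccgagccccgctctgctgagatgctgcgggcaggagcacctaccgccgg
Tapbp, chr17:33919228-33919527, plus strand: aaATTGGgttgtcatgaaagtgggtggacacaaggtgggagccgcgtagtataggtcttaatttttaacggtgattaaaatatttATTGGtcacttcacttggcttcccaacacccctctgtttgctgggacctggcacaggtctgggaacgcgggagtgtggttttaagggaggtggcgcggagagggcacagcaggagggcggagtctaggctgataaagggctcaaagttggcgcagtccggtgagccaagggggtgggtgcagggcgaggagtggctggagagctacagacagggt

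The windows of H2-K1 and H2-D1 were 88.3% identical over 239 aligned bases, and each held the NF-kB letters (as overlapping matches), TGACG and 2 Y boxes. B2m held the interferon element at -139, the NF-kB element at -126, a Y box at -53 and TGACG at 2 places (negative positions are bases before the start). The window between Psmb9 and Tap1 held 1 Y box and 1 TGACG, and the Tapbp window, which lies inside the gene as GENCODE draws it, held 2 Y boxes. No letters of the 4 motifs were found in the windows of Psmb8 and Psmb10. Among all 32851 promoter windows, 3.44% held the interferon element, 4.51% the NF-kB element, 37.4% a Y box, 20.8% TGACG and 7.73% both of the last. These are matches of letters and say nothing of binding in C18-4 cells.

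Knockdown was compared with its own vector control first, the question being which genes of the pathway moved when lncRNA5251 was targeted. Of the 9 members that passed the filter on low values (at least 1 RPKM in at least 3 libraries), 8 rose in KD and Psmb10 fell. The increase ran from 1.17-fold for Tap2 to 2.10-fold for Psmb9 in the ratio of mean RPKM. A call is an adjusted p of at most 0.05 by limma on log2(RPKM + 1), adjusted by Benjamini-Hochberg over all 11435 genes tested. By that rule 31.9% of all genes rose and 23.5% fell, and the median log2 fold change was 0.42 over the 9 members and 0.04 over all genes. In the bulk RNA of a culture, fewer cells of a type and less RNA per cell cannot be told apart. The study asked for an adjusted p up to 0.001 with a log2 fold change of 1 or more in either direction. Applied to log2(RPKM + 1), that threshold called 0 members and 1.57% of all genes. Psmb9 had a log2 fold change of 0.99 on this scale. With 0.1 added to the RPKM in place of 1 it had 1.06 (adjusted p = 2e-06, limma), past both limits.

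The heavy chains present the peptide. H2-D1 measured 97.8, 101.23 and 101.0 RPKM in 3NC, 167.23, 166.02 and 160.38 in KD, 112.06, 108.74 and 111.37 in 5NC and 104.41, 99.49 and 90.0 in OV. All KD libraries lay above all others, and 3NC and OV overlapped. H2-D1 rose in KD against 3NC by 0.71 ± 0.05 (log2, SE; adjusted p = 2.08e-08, limma). H2-K1 measured 221.83, 215.14 and 220.71 RPKM in 3NC, 278.58, 293.02 and 250.69 in KD, 222.23, 218.77 and 223.39 in 5NC and 214.25, 201.79 and 194.09 in OV. The order of the means was KD, 5NC, 3NC and OV, and 3NC and 5NC overlapped. H2-K1 rose in KD by 0.32 ± 0.05 (log2, SE; adjusted p = 0.000141, limma), less on this scale than H2-D1.

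B2m, the light chain that every class I heavy chain needs at the surface, was the most abundant member. It measured 378.15, 366.11 and 359.89 RPKM in 3NC, 492.14, 464.93 and 517.76 in KD, 357.01, 356.08 and 362.18 in 5NC and 384.73, 356.3 and 342.06 in OV. The KD libraries stood alone at the top, while the ranges of 3NC, OV and 5NC overlapped. B2m rose in KD by 0.42 ± 0.05 (log2, SE; adjusted p = 6e-06, limma), which is 33.6% in mean RPKM.

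Of the transporter, Tap1 measured 13.4, 13.27 and 12.3 RPKM in 3NC, 17.89, 18.93 and 16.52 in KD, 11.4, 11.06 and 11.2 in 5NC and 10.01, 9.14 and 8.13 in OV. No groups overlapped for Tap1, in the order KD, 3NC, 5NC and OV. Its log2 fold change in KD against 3NC was 0.42 ± 0.07 (SE; adjusted p = 0.000132, limma). Tap2, the other chain of the transporter, measured 21.17, 20.12 and 20.13 RPKM in 3NC, 24.35, 26.48 and 21.24 in KD, 21.48, 19.83 and 17.99 in 5NC and 13.91, 16.12 and 15.41 in OV. The lowest KD library was just above the highest 3NC library, 3NC and 5NC overlapped, and OV lay below all others. Tap2 rose in KD by 0.22 ± 0.08 (log2, SE; adjusted p = 0.0319, limma), and this call was lost when KD replicate 2 (adjusted p = 0.152), KD replicate 1 (0.0836), 3NC replicate 2 (0.0828) or 3NC replicate 3 (0.0839) was left out, and without the filter on low values (0.0658) or with median centring (0.0504).

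Tapbp, which encodes the peptide-loading factor tapasin, measured 44.87, 40.71 and 42.99 RPKM in 3NC, 67.65, 69.53 and 56.88 in KD, 70.76, 64.22 and 63.1 in 5NC and 62.14, 58.38 and 53.62 in OV. Here 3NC was the group that stood apart, below every other library, and KD overlapped with both 5NC and OV. Tapbp rose in KD against 3NC by 0.58 ± 0.07 (log2, SE; adjusted p = 1.14e-05, limma).

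Among the inducible proteasome subunits, Psmb9 (the subunit that replaces Psmb6) measured 8.85, 8.05 and 7.36 RPKM in 3NC, 17.81, 16.79 and 16.3 in KD, 3.75, 5.65 and 4.65 in 5NC and 4.8, 4.77 and 4.67 in OV. KD was highest, 3NC stood in between, and 5NC and OV overlapped at the bottom. Its increase in KD of 0.99 ± 0.1 (log2, SE; adjusted p = 8.5e-07, limma) was the largest of the members. Psmb8, the chymotrypsin-like subunit, was low, with 1.75, 1.89 and 2.11 RPKM in 3NC, 3.13, 2.79 and 3.76 in KD, 2.42, 1.43 and 1.7 in 5NC and 1.2, 1.66 and 0.82 in OV. The KD libraries lay above all others, and 5NC overlapped with 3NC and with OV. Psmb8 rose in KD by 0.53 ± 0.14 (log2, SE; adjusted p = 0.00487, limma).

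Psmb10, the trypsin-like subunit, went the other way. It measured 18.09, 18.31 and 20.3 RPKM in 3NC, 13.01, 14.78 and 15.03 in KD, 22.12, 19.65 and 21.2 in 5NC and 23.4, 24.84 and 20.01 in OV. The KD libraries were below all others, and OV, 5NC and 3NC overlapped in turn. Psmb10 fell in KD by 0.38 on the log2 scale (SE 0.08; adjusted p = 0.000813, limma). For all 9 members tested the KD and 3NC libraries did not overlap, which held for 62.8% of all genes.

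Nlrc5 was close to 0 throughout, with 0.03, 0.04 and 0.04 RPKM in 3NC, 0.02, 0.01 and 0.0 in KD, 0.05, 0.06 and 0.03 in 5NC and 0.05, 0.03 and 0.03 in OV. It did not pass the filter and was not tested in the fit. The transactivator was thus listed at 0.06 RPKM or less in cells where B2m measured 342.06 RPKM or more.

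**Figure D1:**
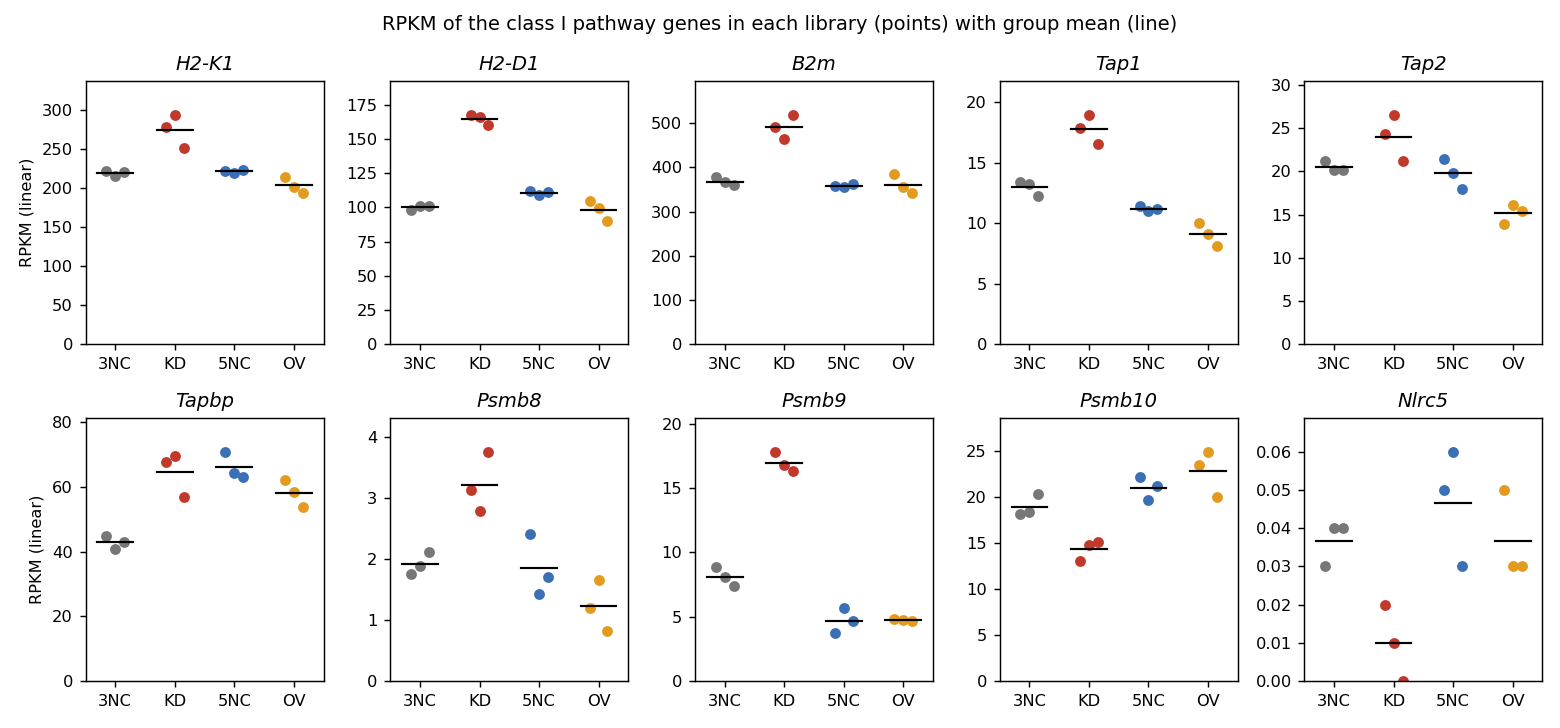
RPKM (linear axis from 0) of the 10 class I pathway genes, with 1 point for each of the 3 libraries of 3NC, KD, 5NC and OV and a line at the group mean. The KD mean is the highest for 7 genes and below all other means for Psmb10, whereas for Tapbp the 3NC points lie alone at 40.71 to 44.87 RPKM.

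The vector controls were compared next, since a difference between 5NC and 3NC is the background against which a change of a targeted group is seen. In 5NC against 3NC 2 members rose and 2 fell by limma, where 31.0% of all genes rose and 25.6% fell, and 0 members passed the threshold of the study, as did 2.61% of all genes. Tapbp rose by 0.61 ± 0.07 (log2, SE; adjusted p = 6.15e-06) and H2-D1 by 0.15 ± 0.05 (adjusted p = 0.0211), while Psmb9 fell by 0.69 on the log2 scale (SE 0.1; adjusted p = 2.84e-05) and Tap1 by 0.19 (SE 0.07; adjusted p = 0.0292). The calls for H2-D1 and Tap1 were near the limit. The call for H2-D1 was lost without 3NC replicate 1 (adjusted p = 0.0776) or 5NC replicate 1 (0.0624) or 3 (0.0587) and with median centring (0.0936). That for Tap1 was lost without 3NC replicate 1 (0.095) or 2 (0.0858) or any 1 of the 5NC libraries (0.0517 to 0.0769). With a library left out the log2 fold change stayed at 0.13 to 0.16 for H2-D1 and at -0.23 to -0.17 for Tap1. The 5NC and 3NC libraries did not overlap for 4 members and for 69.3% of all genes. H2-K1, B2m, Tap2, Psmb8 and Psmb10 had log2 fold changes of 0.01, -0.04, -0.05, -0.05 and 0.14 and did not pass the test, although Psmb10 did in a fit to 5NC and 3NC alone (adjusted p = 0.0391).

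Set against 5NC in place of 3NC, a comparison that shares the KD libraries with the first, KD was higher for 7 members and lower for 1, with 34.0% and 31.4% of all genes. Psmb9 was 3.62-fold higher in mean RPKM (1.67 ± 0.1 on the log2 scale, SE; adjusted p = 1.68e-09, limma) and alone passed the threshold of the study, as did 3.55% of all genes. Tap1 was higher by 0.62 and H2-D1 by 0.57 on the log2 scale. Tap2 was higher by 0.27 (adjusted p = 0.00848, limma) with groups that overlapped, and without 5NC replicate 3 its call was lost (0.0523). For Tapbp the log2 fold change was -0.03 ± 0.07 (SE; adjusted p = 0.718, limma), against 0.58 with 3NC as the control. Tapbp in KD was thus called higher against 3NC and not against 5NC.

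**Figure D2:**
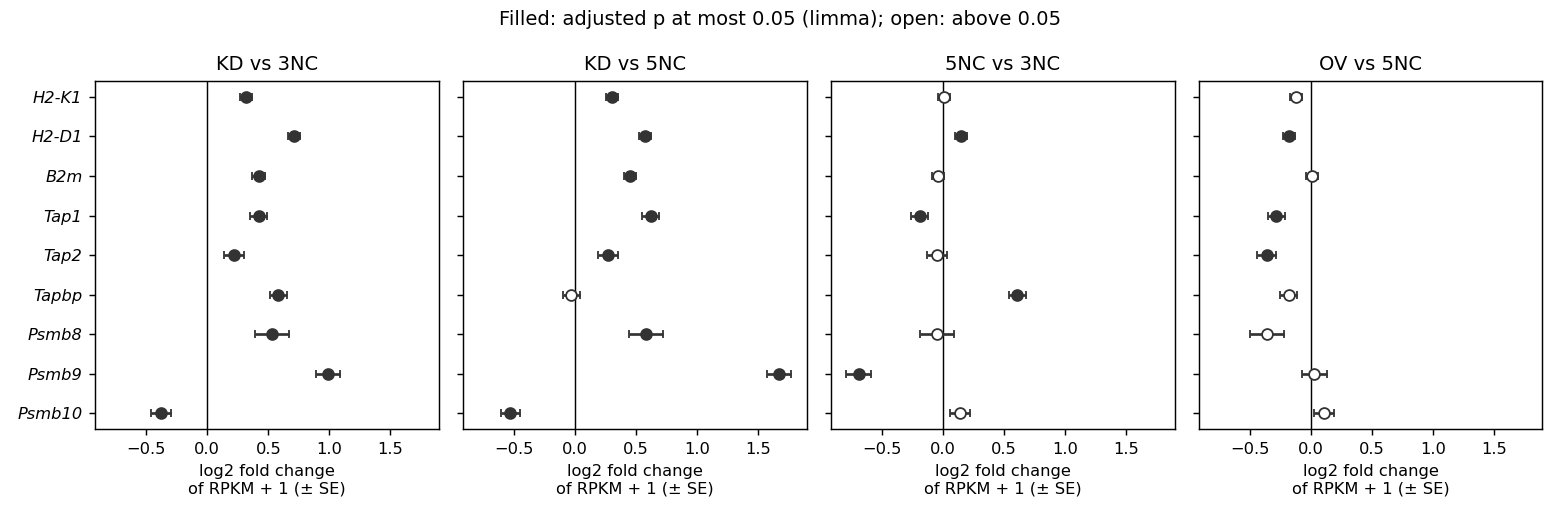
Log2 fold change of RPKM + 1 with its SE (horizontal axis) for the 9 members tested, in KD against 3NC, KD against 5NC, 5NC against 3NC and OV against 5NC, with filled points for an adjusted p of at most 0.05 by limma. In the plot Psmb9 lies at 0.99 and 1.67 in the KD comparisons, and Tapbp at 0.58 against 3NC and at -0.03 against 5NC.

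Overexpression was compared with its own control, 5NC. By limma 0 members rose (0 also at an unadjusted p under 0.05) and 3 fell (6 at an unadjusted p under 0.05), and the shares of all genes were 8.07% and 13.9%. Tap2 fell by 0.36 on the log2 scale (SE 0.08; adjusted p = 0.00743), Tap1 by 0.28 (SE 0.07; adjusted p = 0.0145) and H2-D1 by 0.18 (SE 0.05; adjusted p = 0.0221). In mean RPKM Tap2 fell by 23.4% and H2-D1 by 11.5%. The call for H2-D1 was lost without OV replicate 2 (adjusted p = 0.0569) or any 1 of the 5NC libraries (0.0544 to 0.0694), in a fit to OV and 5NC alone (0.0662) and with median centring (0.0736), and that for Tap1 under quantile normalization (0.0524). B2m (0.01 ± 0.05), Psmb9 (0.03 ± 0.1), Psmb10 (0.11 ± 0.08), H2-K1 (-0.12 ± 0.05), Tapbp (-0.18 ± 0.07) and Psmb8 (-0.36 ± 0.14; log2, SE) did not pass the test, and Psmb8 did without OV replicate 2 (adjusted p = 0.0457), Psmb10 without OV replicate 3 (0.05), H2-K1 under quantile normalization (0.0132), and Tapbp under quantile normalization (0.0498) and with the replicate block (0.0401). The OV and 5NC libraries did not overlap for 5 members, H2-K1, H2-D1, Tap1, Tap2 and Tapbp, all lower in OV, and for 36.7% of all genes. The threshold of the study was passed by 0 members and 0.0% of all genes.

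Within OV, replicate 3 had the lowest value of the group for 8 of 9 members, against 44.8% of all genes tested. Within KD, replicate 3 was lowest for 6 of 9 members, against 41.1% of all genes. Within 5NC, replicate 2 was lowest for 6 of 9 members, against 32.4% of all genes. In KD against 3NC 7 or 8 members were called higher whichever library was left out.

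The difference between the KD effect (KD minus 3NC) and the OV effect (OV minus 5NC) was tested as a contrast of its own. It was higher for 8 members and lower for Psmb10, with 31.2% and 20.7% of all genes called higher and lower, and no member was among the 2.87% of genes past the threshold of the study. The largest differences of effects were those of Psmb9 (0.96, adjusted p = 5.05e-05), H2-D1 (0.89, adjusted p = 1.48e-07) and Psmb8 (0.89, adjusted p = 0.00175, log2, limma), and Psmb10 gave -0.49 (adjusted p = 0.00206). The median over the members was 0.7, and 0.07 over all genes.

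The transcripts of each pair of exchanged subunits were compared as the share of the inducible subunit in their summed RPKM. Protein was not measured, so the shares do not show which subunits were built into proteasomes. Psmb9 made up 3.71% ± 0.37 of Psmb9 and Psmb6 in 3NC against 7.74% ± 0.44 in KD, and 2.42% ± 0.51 in 5NC against 2.21% ± 0.2 in OV (SD, n = 3 each). Psmb8 made up 0.977% ± 0.11 of Psmb8 and Psmb5 in 3NC against 1.93% ± 0.38 in KD, and 0.88% ± 0.24 in 5NC against 0.52% ± 0.15 in OV. The constitutive subunit was therefore the far more abundant transcript in all groups, also in KD. For Psmb10 and Psmb7 the share was 5.43% ± 0.38 in 3NC against 4.15% ± 0.29 in KD, and 7.72% ± 0.74 in 5NC against 7.08% ± 0.3 in OV. Each of the 3 differences between KD and 3NC had a two-sided p of 0.1 in an exact permutation test, the smallest that 3 against 3 libraries can give. Of the constitutive subunits Psmb5 fell in KD, from 194.5 ± 3.17 to 165.1 ± 7.40 RPKM (SD, n = 3; log2 fold change -0.24, adjusted p = 0.00334, limma), and Psmb6 and Psmb7 did not pass the test.

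**Figure D3:**
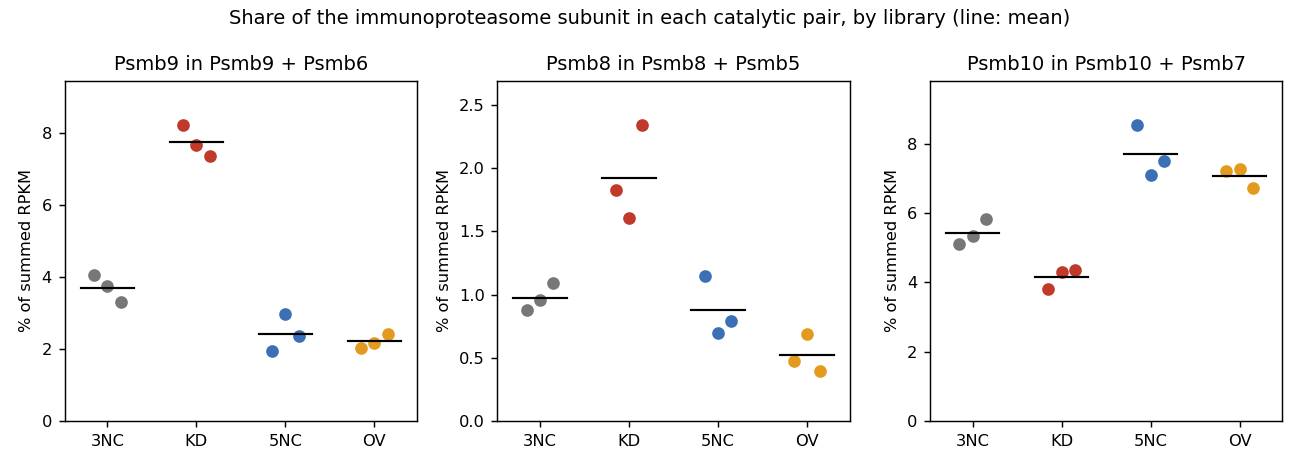
Share of Psmb9, Psmb8 and Psmb10 in the summed RPKM of each with its constitutive counterpart (percent, linear axis from 0), by library, with a line at the mean of the 3 libraries of each group. KD has the highest shares of Psmb9 and Psmb8, with means of 7.74% and 1.93%, and the lowest of Psmb10, with a mean of 4.15%.

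The rest of the pathway was read from lists of other genes. Of 14 other class I heavy chains tested, 10 rose in KD against 3NC and 0 fell (0 at an unadjusted p under 0.05, limma), with a list median of 0.38, where 31.9% of all genes rose and 23.5% fell. In 5NC against 3NC 4 rose and 3 fell (31.0% and 25.6% of all genes), in KD against 5NC 9 were higher and 1 lower (34.0% and 31.4%), and in OV against 5NC 3 fell and 0 rose (13.9% and 8.07%; 0 rose at an unadjusted p under 0.05). H2-Q4 was higher in KD against 3NC (0.2) and lower against 5NC (-0.31 on the log2 scale, adjusted p = 0.000538). H2-Q9 rose from 3.62 ± 0.57 to 7.80 ± 0.63 RPKM (SD, n = 3; 0.93 on the log2 scale, adjusted p = 9.47e-06) and Cd1d1, which presents lipids, from 2.71 ± 0.37 to 5.05 ± 0.34 (0.71, adjusted p = 7.59e-06). H2-Q6 was among those called, at 0.0 to 1.1 RPKM in 3NC and 1.85 to 3.96 in KD. The Q genes are close copies of each other and of H2-K1 and H2-D1, so reads may have been split among them. Chaperones and trimming enzymes of the loading pathway rose in 7 and fell in 2 of 10 cases, beside the same 31.9% and 23.5% of all genes. In 5NC against 3NC 5 rose and 2 fell (31.0% and 25.6% of all genes), with 1 to 2 falling when a library was left out. Hspa5 was among those that fell (-0.99). In KD against 5NC 4 were higher and 1 lower (34.0% and 31.4%). In OV against 5NC 3 of them rose, among them Calr (0.53 on the log2 scale, adjusted p = 1.98e-06) and Hspa5 (0.6, adjusted p = 4.38e-06), and 2 fell (1 to 4 with a library left out), where 8.07% of all genes rose and 13.9% fell. Erap1, the aminopeptidase that trims peptides in the endoplasmic reticulum, rose from 5.43 ± 0.42 to 7.66 ± 0.51 RPKM (0.43, adjusted p = 0.000824) but was also higher in 5NC than in 3NC (0.55, adjusted p = 0.000102), and its log2 fold change in KD against 5NC was -0.12 (adjusted p = 0.263). Pdia3, a part of the peptide-loading complex, rose in KD against 3NC from 688.9 ± 7.54 to 888.1 ± 49.6 (0.36, adjusted p = 5.64e-06).

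The constitutive proteasome was read next. In KD against 3NC 16 of 21 subunits of the 19S cap, which admits ubiquitinated proteins, fell and 1 rose, with a median of -0.25, where 23.5% of all genes fell and 31.9% rose. Against 5NC 7 were lower in KD and 6 higher (31.4% and 34.0% of all genes), with a median of -0.01. Psmc4 fell from 118.3 ± 1.64 to 82.3 ± 2.05 RPKM (SD, n = 3; -0.52 on the log2 scale, adjusted p = 1.66e-07, limma). Of 16 other 20S subunits and assembly factors 2 rose and 3 fell in KD against 3NC (31.9% and 23.5% of all genes). Only 1 rose without 3NC replicate 2 or KD replicate 1, or with median centring. Against 5NC 10 were higher in KD and 1 lower (34.0% and 31.4%). In 5NC against 3NC 1 rose and 11 fell (31.0% and 25.6%). In OV against 5NC 7 rose and 0 fell (8.07% and 13.9%), and 2 to 13 rose with a library left out. Of 4 proteasome activators Psme3, part of a nuclear activator, fell in KD against 3NC from 101.8 ± 1.02 to 69.0 ± 2.29 RPKM (-0.55, adjusted p = 6.23e-08). Psme1, part of the interferon-inducible activator PA28, rose there by 0.16 (adjusted p = 0.0231). The call for Psme1 was lost without 3NC replicate 1, KD replicate 1 or KD replicate 2 and with median centring. Among 6 cytosolic peptidases, which destroy or trim peptides before transport, 2 rose and 4 fell in KD against 3NC (31.9% and 23.5% of all genes). Against 5NC the balance was reversed, with 4 higher in KD and 2 lower (34.0% and 31.4%). The 19S subunits also fell in 5NC against 3NC, 17 of 21 with 1 rising (12 to 15 falling with a library left out), where 25.6% of all genes fell and 31.0% rose. In OV against 5NC 11 rose and 0 fell (0 at an unadjusted p under 0.05), beside 8.07% and 13.9% of all genes. The count of 11 dropped to 2 without OV replicate 2 and to 4 without OV replicate 1 or 5NC replicate 3. It dropped to 3 without 5NC replicate 2 or under quantile normalization. The calls over all genes dropped as well, from 2518 to 981 without OV replicate 2, 1027 without OV replicate 1 and 1297 without 5NC replicate 3. They were 1063 without 5NC replicate 2 and 1889 under quantile normalization.

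Of 17 interferon-stimulated genes outside the pathway, 5 rose and 7 fell in KD against 3NC, with a median of -0.01, beside 31.9% and 23.5% of all genes. Oasl2, an antiviral oligoadenylate synthetase-like gene, fell from 13.4 ± 1.06 to 5.18 ± 0.30 RPKM (SD, n = 3; -1.22 on the log2 scale, adjusted p = 2.18e-09, limma), and Cxcl10, a T-cell chemokine, from 13.6 ± 0.64 to 7.67 ± 0.25 (-0.75, adjusted p = 1.03e-06). In KD against 5NC 5 were higher and 10 lower (34.0% and 31.4% of all genes), with a median of -0.45. In 5NC against 3NC 12 rose and 2 fell (31.0% and 25.6% of all genes), Ifit1 rising from 1.40 ± 0.18 to 4.00 ± 0.19 RPKM (1.06, adjusted p = 6.46e-07). In OV against 5NC 11 fell and 0 rose (0 at an unadjusted p under 0.05), with 13.9% and 8.07% of all genes. Usp18, a brake on interferon signalling, fell there from 3.78 ± 0.29 to 2.28 ± 0.14 RPKM (-0.54, adjusted p = 0.000914). Of the list 6 fell without 5NC replicate 2 and 7 without OV replicate 2, without 5NC replicate 1 or under quantile normalization. Those fits called 981 to 1889 of all genes in either direction, against 2518 in the main fit.

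Of 22 transcription regulators of class I genes 6 rose and 8 fell in KD against 3NC, beside 31.9% and 23.5% of all genes, with 3 rising when 3NC replicate 3 or KD replicate 3 was left out. Nfkb1, an NF-kB subunit, fell from 24.5 ± 0.34 to 17.3 ± 0.90 RPKM (SD, n = 3; -0.48 on the log2 scale, adjusted p = 9.31e-07, limma), and Nfyc, part of the factor that binds the Y box, from 22.1 ± 0.32 to 16.6 ± 0.78 (-0.39, adjusted p = 1.13e-05). In KD against 5NC 7 of the 22 were higher and 12 lower (34.0% and 31.4% of all genes). In OV against 5NC 6 fell and 1 rose (13.9% and 8.07% of all genes). With a library left out 2 to 7 fell, the fewest without OV replicate 2 (3 without OV replicate 1, 5NC replicate 2 or 5NC replicate 3). The fits without these libraries called 981 to 1297 of all genes in either direction, against 2518 in the main fit. Irf7 fell in OV against 5NC from 6.59 ± 0.49 to 3.52 ± 0.33 RPKM (-0.75, adjusted p = 7.76e-05), and Rela rose (0.25, adjusted p = 0.0101). Of the list 0 rose without OV replicate 1 and 4 without OV replicate 3, a fit that called 4183 of all genes in either direction. Among 9 interferon receptors and signalling genes 2 rose and 1 fell in KD against 3NC (31.9% and 23.5% of all genes), the kinase gene Tyk2 rising from 3.88 ± 0.35 to 5.96 ± 0.26 RPKM (0.52, adjusted p = 1.39e-05) and the receptor gene Ifngr2 falling from 27.6 ± 0.52 to 22.3 ± 0.69 (-0.3, adjusted p = 0.000246). Of 9 MHC class II genes only Cd74 and H2-DMa could be tested, and both rose in KD, Cd74 from 16.5 ± 0.58 to 21.5 ± 1.14 RPKM (0.36, adjusted p = 0.00125), while 1 of them was called without KD replicate 1. Cd74 fell in 5NC against 3NC, to 8.25 ± 0.42 RPKM (-0.92, adjusted p = 1.26e-07), and in OV against 5NC (-0.37, adjusted p = 0.0059).

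**Figure D4:**
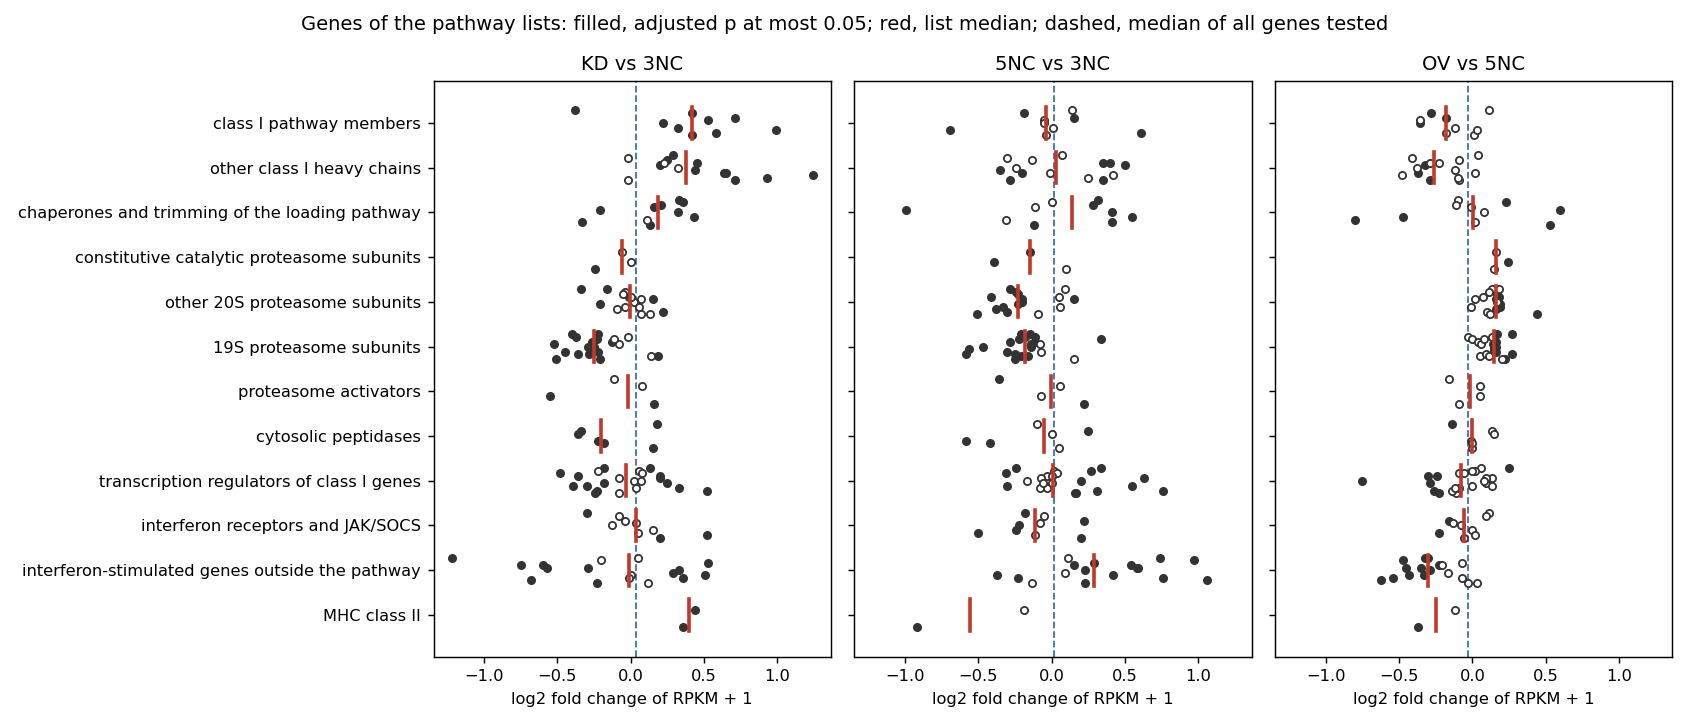
Log2 fold change of RPKM + 1 of each tested gene (points, filled at an adjusted p of at most 0.05 by limma) in the class I pathway members and 11 other lists, for KD against 3NC, 5NC against 3NC and OV against 5NC, with the list median in red and the median of all genes dashed. In KD the members and the other heavy chains have medians of 0.42 and 0.38 and the 19S subunits one of -0.25, while in 5NC the interferon-stimulated genes have one of 0.29.

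Markers of other cells were measured beside these changes. The summed RPKM of the 7 leukocyte markers was 4.14 to 6.03 in 3NC against 2.8 to 3.56 in KD, and 2.31 to 2.57 in 5NC against 1.5 to 2.89 in OV. Cd68, the 1 leukocyte marker tested, made up most of that sum and fell in KD against 3NC from 5.05 ± 0.82 to 2.69 ± 0.17 RPKM (SD, n = 3; -0.7 on the log2 scale, adjusted p = 0.000628, limma). The sum of 7 mesenchymal markers was 802.02 to 844.7 in 3NC against 901.89 to 996.73 in KD, and 1037.94 to 1080.95 in 5NC against 1109.68 to 1198.12 in OV, and 4 of 6 tested rose in KD against 3NC (31.9% of all genes), among them Acta2 from 8.52 ± 0.51 to 18.6 ± 1.45 RPKM (SD, n = 3; 1.04 on the log2 scale, adjusted p = 3.27e-08, limma). In 5NC against 3NC 4 also rose and 1 fell (31.0% and 25.6% of all genes), with Acta2 at 1.22, Dcn at 2.32 and Pdgfra at -0.31 on the log2 scale (adjusted p = 0.00882 for Pdgfra). In KD against 5NC 2 were lower (31.4% of all genes), Acta2 at -0.18 and Dcn, with means of 36.1 RPKM in KD and 111.9 in 5NC, at -1.61. In OV against 5NC 1 rose and 1 fell (8.07% and 13.9% of all genes), Vim at 0.18 (adjusted p = 0.0144) and Acta2 at -0.6 on the log2 scale (adjusted p = 0.000244). Their part in the class I changes was not tested. The 6 Sertoli cell markers summed to 54.91 to 56.48 in 3NC and 54.66 to 55.97 in KD, the 3 Leydig cell markers to 0.81 to 1.38 and 1.1 to 2.39, and the 14 spermatogonial markers to 105.3 to 113.9 and 124.01 to 133.94, with 64.88 to 71.77 in 5NC and 61.53 to 68.95 in OV. The Sertoli sum was carried by Wt1, with means of 50.31 RPKM in 3NC and 50.38 in KD, while 4 of the 6 stayed below 1 RPKM in every library. The spermatogonial sum was carried by Cd9, at 101.9 ± 4.62 RPKM in 3NC and 119.6 ± 4.89 in KD (SD, n = 3). Of 3 tested 2 rose in KD against 3NC (31.9% of all genes), Cd9 at 0.23 (adjusted p = 0.00447) and Itga6 at 0.34 (adjusted p = 0.00709), and 1 fell (23.5%), Id4 at -0.4 on the log2 scale (adjusted p = 0.00143, limma). Cd9 also fell in 5NC against 3NC, by 0.72 on the log2 scale (adjusted p = 1.04e-07).

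Across the 12 libraries the members varied together to different degrees, as a description of libraries that share 4 groups. H2-K1 and H2-D1 had a Pearson correlation of log2 values of 0.94, and H2-D1 and B2m of 0.94. Tap1 and Psmb9, whose promoter windows and exons overlap, gave 0.92. Pairs without such overlap came as high, Tap1 and H2-K1 with 0.93 and B2m and Psmb9 with 0.9. Tap1 and Tap2 gave 0.88. Psmb9 and Psmb10 gave -0.94. Tapbp was the least tied to the others, from -0.09 with Psmb10 to 0.52 with H2-D1, and 0.02 with Psmb9. The genes outside the pathway whose pattern was most like the mean standardized pattern of the 9 tested members were Ndufa6 (r = 0.983 over 12 libraries), Myl9 (0.982), Myo7a (0.98), Glod4 (0.978) and Rdm1 (0.977), and those most opposed to it were Hnrnpdl (-0.982), Plk2 (-0.972) and Hnrnpd (-0.97). Myl9, a myosin light chain gene, measured 18.82 to 21.46 RPKM in KD and 3.53 to 6.93 in the other groups. Plk2, a polo-like kinase gene, measured 24.41 to 25.23 RPKM in KD and 46.49 to 61.82 elsewhere.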

How the data were processed

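The authors enriched polyadenylated RNA with oligo(dT), mapped the reads with SOAPaligner 2.20 to reference genes and deposited RPKM, which divide reads by gene length and library size. The genome build, the annotation and the strand setting are not given in the sources used here. RPKM hold no read counts, so the count test of the study (DEGseq) was not run. Groups and replicate numbers came from the sample labels. limma 3.58.1 (R 4.3.3, eBayes with an intensity trend) was fitted to log2(RPKM + 1) of all 12 libraries, for 11435 genes that reached 1 RPKM in 3 or more libraries. Fold changes on this scale understate those of low genes. The script was tested on simulated data. Members, lists, motifs and the rule for named genes (in each list at most 3 called genes per comparison whose groups do not overlap, by size) were chosen with earlier results of these data known. Alternatives were a pseudocount of 0.1, no filter, quantile normalization, median centring (chosen after seeing the data), a replicate block, a fit to the compared groups alone, stricter thresholds and leaving out each library. Entrez numbers matched RefSeq for 17458 of 17576 genes. Figures used matplotlib 3.10.9 in Python 3.11.15.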

Additional observations from a re-analysis of the deposited data

How the results depend on the processing

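Of 675 values of single members under the alternatives, 600 kept the sign and the call, 60 kept the direction but lost the call, 6 gained a call and 9 changed sign. At the threshold of the study, applied to log2(RPKM + 1), the counts of members called fell to 0 in every comparison except KD against 5NC, where 1 was higher and 0 were lower. With a pseudocount of 0.1 Psmb9 had 1.06 in KD against 3NC (adjusted p = 2e-06, limma), which meets that threshold. At an adjusted p of at most 0.01, 1 member was lower in OV against 5NC (766 of 11435 genes called in either direction) and 1 was higher and 1 lower in 5NC against 3NC (5038 of 11435), and with median centring 1 was higher there. Without the filter 2 members were lower in KD against 5NC, the second being Nlrc5 (adjusted p = 0.0239). With single libraries left out, 0 to 1 members rose and 2 to 3 fell in OV against 5NC, and 1 to 2 rose and 1 to 2 fell in 5NC against 3NC. Sign changes touched only values that had not passed the test. In OV against 5NC, B2m moved from 0.01 to -0.11 under quantile normalization and to -0.04 without OV replicate 1 (range -0.04 to 0.05 with a library left out), Psmb9 from 0.03 to -0.09 without 5NC replicate 1 (-0.09 to 0.15), and the Psmb9 share from -0.21 to 0.06 percentage points without 5NC replicate 2 (-0.45 to 0.06). In 5NC against 3NC, H2-K1 moved to -0.02 with median centring, Tap2 to 0.01 without 5NC replicate 3, and Psmb8 to 0.0 without 3NC replicate 3 and 0.06 without 5NC replicate 2 (-0.19 to 0.06). In KD against 5NC, Tapbp moved to 0.06 without KD replicate 3 and 0.02 without 5NC replicate 1. The cause was not tested. Replicate numbers did not pair the libraries: same-numbered KD and 3NC libraries deviated with correlations of -0.034, -0.13 and -0.178. With the replicate block 8 members rose and 1 fell in KD against 3NC, and in OV against 5NC 4 fell, Tapbp being added. The read depth is unknown, which limits what the lowest levels can show.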
